A study of Saccharomyces cerevisiae with 8 samples.

Results

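The genes described here are the ribosomal protein genes of Saccharomyces cerevisiae whose coding sequence is a single unbroken segment. Members were taken from the R64 annotation as nuclear protein-coding genes whose symbol is RPL or RPS followed by a digit, or one of the 5 RPP stalk genes, with 1 coding segment. This gave 48 of 6002 protein-coding genes, and left 89 ribosomal protein genes whose coding sequence holds an intron. Of the 48 members, 24 encode proteins of the large subunit (RPL), 20 of the small subunit (RPS) and 4 of the acidic stalk and its base (RPP).

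Their transcription starts were read from CAGE-seq, an assay that sequences the RNA from its cap inward, in 8 libraries from the laboratory strain BY4741. All strains carried a synthetic locus, either synHPRT1 (a human genomic sequence) or synHPRT1R (the same bases in reversed order, not complemented). The locus was kept as a yeast artificial chromosome (YAC), with culture in SC-Leu, or integrated into chromosome XI, with culture in YPD. The groups were synHPRT1 YAC, synHPRT1R YAC, synHPRT1 integrated and synHPRT1R integrated, with 2 libraries from separate colonies of each strain, grown at 30 °C to mid-log phase. All groups derive from BY4741, which lacks functional HIS3, LEU2, MET17 and URA3. The YAC vector carries LEU2 as a selection marker, and a LEU2 start peak was found only in the YAC strains. Every YAC strain grew in SC-Leu and every integrated strain in YPD. Medium, genomic context and this marker therefore cannot be told apart, and each group below is named by its medium.

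Yeast ribosomal protein genes are among the most heavily transcribed genes in growing cells, and most of their products are needed in equal numbers. Many exist as a pair of paralogues, A and B, that encode identical or nearly identical proteins. They are known to be controlled together by nutrients through the TOR and protein kinase A pathways, with Rap1, Fhl1, Ifh1 and Sfp1 acting at most of their promoters and Abf1 at a minority.

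A start peak was a peak on the gene's strand whose 5′ end lay between 300 bp upstream and 50 bp downstream of the start codon. The leader is the distance in bp between that 5′ end and the start codon, and height is the number of reads stacked at the summit, scaled to the depth of the library (reads per 1e6 aligned reads, RPM). One capped end is read per RNA, so that height does not scale with gene length. The members on which the results turn are shown first by the 30 bases around their most frequent 5′ end (R64, read along the gene). The first 2 bases of the peak are in capitals. That end was found in 8 libraries for RPS26A and RPL32, 7 for RPS26B, 6 for RPS2 and 5 for RPL11A. It was found in only 4 for RPL9A and RPS28A, 3 for RPL9B and 2 for RPS28B. RPL9A had leaders of 46 and 48 bp equally often, and RPS28B of 24 and 44 bp, and the shorter is printed. RPS26 and RPL9 are the most unequal pairs with both copies called in all 8 libraries, and RPS28 the next, RPL32 and RPS26B have the shortest leaders, and RPL11A and RPS2 the longest. In RPS26B, RPS28B and RPL32 the capitals at the right-hand end mark the start codon.
RPS26A: ctgcaatactcgtgaTGaatatttaattag
RPS26B: tttactgaatttgtatGTaatttttagATG
RPL9A: gatattaaattagtgTGtaaaaagcttctg
RPL9B: tttctctctctgaaaCGacaataaaccaaa
RPS28A: tgtaaattacagttgTGttcgttttcgatt
RPS28B: taaGCaaagcataaaagagcagcaaaaATG
RPL32: ttttcattttttttttttttTGattagATG
RPL11A: cttaccactcagctaTGcgaaagtttcatt
RPS2: tgcttgataccttttCAatcccaaagaaac

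These windows lie at chrVII:148599-148628 on the minus strand (RPS26A), chrV:423925-423954 on the plus strand (RPS26B), chrVII:228361-228390 on the minus strand (RPL9A) and chrXIV:499626-499655 on the plus strand (RPL9B). They lie at chrXV:649040-649069 on the minus strand (RPS28A), chrXII:673104-673133 on the plus strand (RPS28B), chrII:45951-45980 on the plus strand (RPL32), chrXVI:731875-731904 on the minus strand (RPL11A) and chrVII:277488-277517 on the plus strand (RPS2). Apart from the start codons shown, none of these windows overlaps a gene in the R64 annotation on either strand. At the most frequent 5′ end of each gene, 28 of the 39 members called in every library (71.8%) had a pyrimidine as the first base of the peak and a purine as the next, against 1011 of all 1190 genes called in every library. In a further 4 members (10.3%, against 1.68% of all genes) that step lay 1 base upstream, as in RPS26B. The step CA was found in 28.2% of these members and in 27.6% of all such genes.

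Libraries held 6.48 to 8.85 M aligned reads (M, 1e6) and 3106 to 3470 peaks, and the lowest height called was 8.48 to 9.65 RPM on the forward strand and 13.7 to 14.6 RPM on the reverse strand. A gene below these heights is not listed. No start peak therefore means none detected within the window, at this depth and with this alignment. LEU2 had a start peak in all 4 SC-Leu libraries and in none of the YPD libraries, URA3 and MET17 had none, and of the mating type markers MFA1 was called in all 8 libraries, STE2 and MF(ALPHA)1 in 1 each and STE3 in none. Start peaks were called at 2306 to 2588 genes per library.

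Ribosomal protein genes with 1 coding segment were nearly all detected. Every one of the 8 libraries had a start peak at 39 of the 48 members (81.2%), against 19.8% of all 6002 protein-coding genes. A further 6 members were called in 3 to 7 libraries. No library called RPL29, RPL38 or RPS29A, which encode small proteins of the large subunit (RPL29 and RPL38) and of the small subunit (RPS29A). By number of libraries, SC-Leu cultures called 40 to 43 members each and YPD cultures 43 or 44. Each member had at most 1 start peak per library, 341 in all.

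The ribosomal protein genes with an intron differed from the members in this respect. Of these 89 genes, 26 had a start peak in any library and 2 had one in all 8, RPL17A and RPL17B. Both have a first coding segment of 309 bp, the longest of the 89, whose median is 15 bp. RPL17A reached 1788 to 2313 RPM with a leader of 49 bp, within the range of the members, whereas RPL17B stood at 12.1 to 119 RPM. The first coding segment was shorter than the 75-base read in 57 of the 63 genes never called and in 20 of the 26 that were called at least in part. Reads were aligned by the authors with Bowtie2, which does not join exons, and the part of this in the difference was not tested.

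Members called in only some libraries were low or variable. RPL24B, a large subunit protein that is not essential, was called in 7 libraries, at 29.4 to 72.1 RPM in 3 SC-Leu libraries and at 42.7 to 85.4 RPM in all 4 YPD libraries. Its paralogue RPL24A was called in 3, at 70.5 and 34.1 RPM in SC-Leu and 52.5 RPM in YPD. RPL15B was called in 5, at 32.3 RPM in 1 SC-Leu library and 16.3 to 65.0 RPM in all 4 YPD libraries. RPS25A and RPS25B, the copies of a small subunit protein, were near the detection limit. RPS25A was called at 18.7 RPM in 1 SC-Leu library and at 16.5 and 19.3 RPM in 2 YPD libraries, and RPS25B at 50.3 RPM in 1 SC-Leu library and at 21.6 to 54.5 RPM in 3 YPD libraries. RPS1A, a small subunit protein near the mRNA exit site, was called in 7 libraries and is given with the comparison of media, since its heights varied most. Of these 6 genes, 5 had a mean height under 60 RPM over the libraries that called them.

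RPL29 had a peak just beyond the window in all 8 libraries, noticed after the values had been seen. Its 5′ end lay 304 to 357 bp upstream of the start codon, at 357 bp in 5 libraries, and it reached 70.1 to 108 RPM in SC-Leu and 125 to 235 RPM in YPD. The groups did not overlap. Whether this peak belongs to RPL29 was not tested. No peak was found within 400 bp upstream of RPL38 or RPS29A.

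The 39 members called in every library had mean heights of 44.3 to 35612 RPM with a median of 1953 RPM, against a median of 137 RPM over all 1190 genes called in every library. Among these 1190 genes, 28 of the 100 tallest were members. A median fold enrichment of 49 or more was found in 15 of the 39 members (38.5%, against 4.79% of all 1190 genes). This is close to the ceiling of 50 that the peak caller's background sets. By role, the median of the mean heights was 1795 RPM for 19 large subunit genes, 3048 RPM for 16 small subunit genes and 2242 RPM for 4 stalk genes. In each library the median height over the 39 members was 1751, 1562, 1731 and 1766 RPM in SC-Leu (in the order synHPRT1 1 and 2, synHPRT1R 1 and 2, used throughout) and 2083, 2100, 2110 and 2013 RPM in YPD. Over all 1190 genes these medians were 132, 135, 133 and 127 RPM in SC-Leu and 137, 146, 140 and 148 RPM in YPD. There too the media did not overlap.

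**Figure D1:**
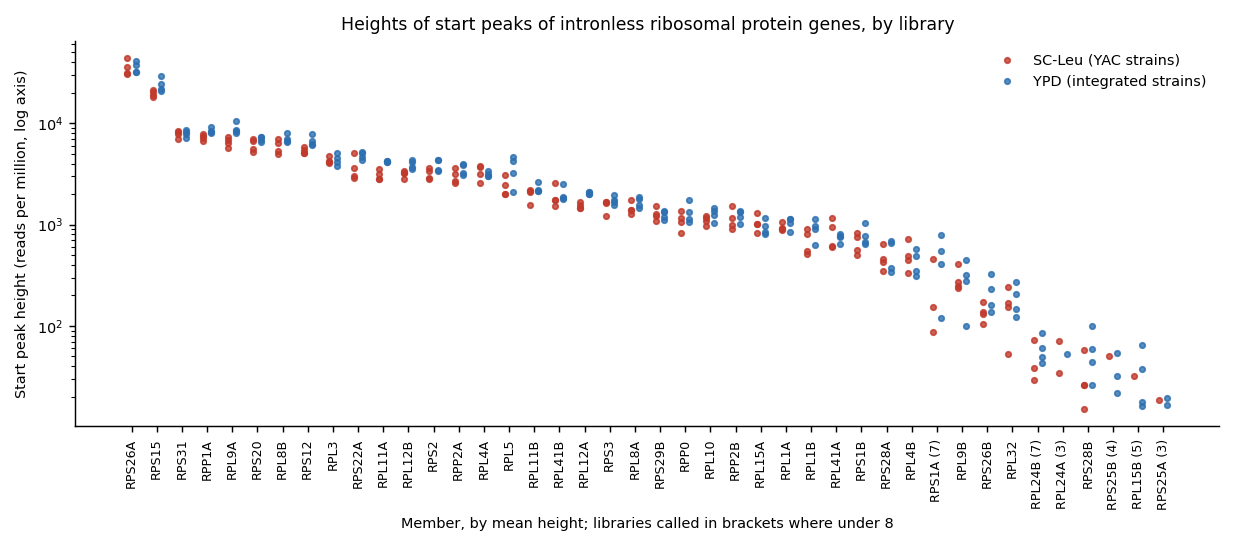
Height of the start peak (RPM, log axis) in each library for 42 of the 45 members with a peak, ordered by mean height, with SC-Leu libraries left and YPD libraries right of each position. RPS26A, at 30513 to 43721 RPM, stands at the left end and the members called in 3 to 7 libraries gather at the right end, apart from RPS1A.

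The tallest member was RPS26A (YGL189C), which encodes a protein at the mRNA exit channel of the small subunit and had the tallest start of all 1190 genes. It reached 30513, 31307, 43721 and 35507 RPM in SC-Leu and 41466, 37708, 32334 and 32338 RPM in YPD. The groups overlapped fully. RPS15, needed for export of the small subunit from the nucleus, was 4th among all genes, at 18807, 20344, 18187 and 21035 RPM in SC-Leu and 24409, 29241, 21565 and 20696 RPM in YPD. The highest SC-Leu value lay above the lowest YPD value.

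RPS31, a fusion of ubiquitin with a small subunit protein, ranked 12th and varied least of all 1190 genes. It had 7864, 6996, 8302 and 8172 RPM in SC-Leu and 8645, 8190, 7109 and 7752 RPM in YPD, a spread of 1.24-fold between the highest and the lowest. RPP1A, a P1 protein of the stalk that recruits translation factors, ranked 13th, with 7483, 7070, 7809 and 6749 RPM in SC-Leu and 8146, 9239, 7944 and 8313 RPM in YPD. Here every SC-Leu value lay below every YPD value, and the gap between the groups was small beside the heights themselves.

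At the other end, RPS28B, the lesser copy of a small subunit protein, was called in all libraries at 58.3, 26.1, 25.9 and 15.3 RPM in SC-Leu and 59.0, 44.5, 26.0 and 99.6 RPM in YPD. RPL32 had 53.4, 153, 168 and 244 RPM in SC-Leu and 272, 207, 146 and 122 RPM in YPD. Both genes varied more than 5-fold between libraries, and the groups overlapped. RPS26B had 105, 132, 174 and 137 RPM in SC-Leu and 232, 137, 328 and 162 RPM in YPD. RPL9B had 249.6, 236, 410 and 270.0 RPM in SC-Leu and 317, 443, 99.4 and 276 RPM in YPD, with the lowest and the highest value both in YPD. These 4 are all large subunit or small subunit genes, and 3 of them are the B copy of a pair whose A copy was taller in every library. The leaders of RPL32 and RPS26B were not examined for introns, and the part of this in their heights was not tested.

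The members called in any library together carried 19.3% to 21.9% of the summed height of all gene starts in SC-Leu libraries and 21.3% to 22.5% in YPD libraries. RPS26A alone made up 21.9% to 27.5% of the members' sum in SC-Leu and 19.0% to 23.3% in YPD. Members were also reproducible between libraries. The SD of log2 height over 8 libraries had a median of 0.25 over the 39 members, against 0.52 over all 1190 genes. Taller peaks rest on more reads, and the part of height in this difference was not tested.

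Leaders of the members were mostly short. Over the 39 members called in every library the median leader was 47.0 bp, with an interquartile range of 26.5 to 66.2 bp, against a median of 55.0 bp over all 1190 genes. A median leader of 30 bp or less was found in 12 members (30.8%) and in 167 of 1190 genes, and one of more than 100 bp in 2 members and in 14.1% of all genes. Per library, the median over the members was 45.9 ± 2.95 bp (SD, n = 8), ranging from 41 to 48 bp in SC-Leu and from 44 to 51 bp in YPD. By role, the median leader was 47 bp for large subunit genes, 39.8 bp for small subunit genes and 71.8 bp for stalk genes, none of the 4 stalk leaders being shorter than 56.5 bp.

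**Figure D2:**
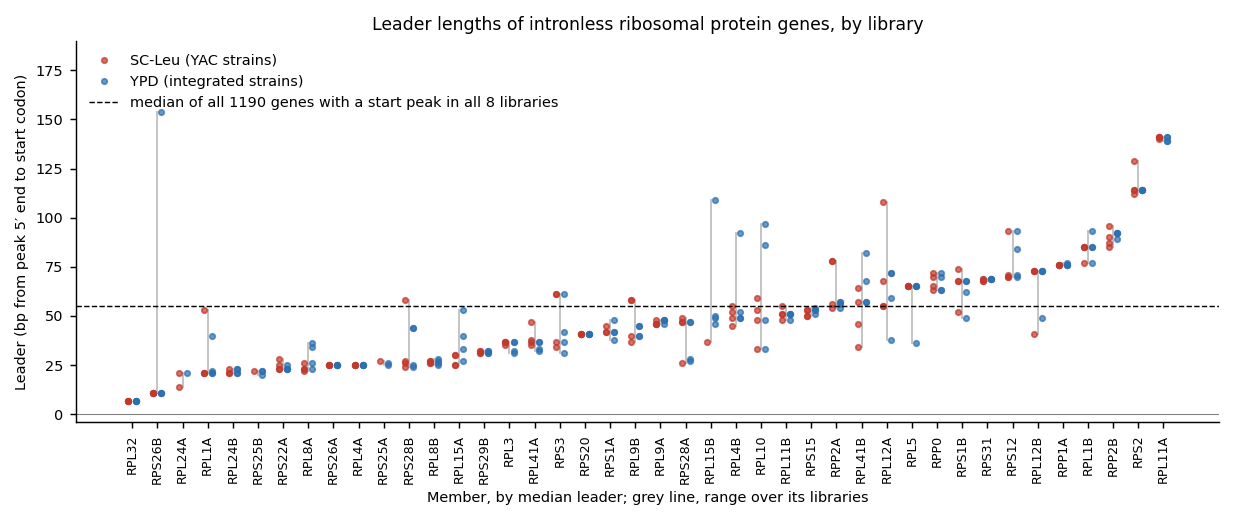
Leader (bp from the 5′ end of the start peak to the start codon) in each library for 42 of the 45 members with a peak, ordered by median, with SC-Leu libraries left and YPD libraries right of each position and the range as a grey line. The dashed line is the median of 55.0 bp over all 1190 genes, and RPL11A and RPS2 are the only members called in every library whose median exceeds 100 bp.

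The longest leader was that of RPL11A, whose product binds 5S rRNA in the central protuberance. It measured 141, 141, 141 and 140 bp in SC-Leu and 139, 141, 139 and 141 bp in YPD. RPS2, a small subunit protein needed for decoding accuracy, followed with 114, 129, 112 and 114 bp in SC-Leu and 114 bp in all 4 YPD libraries. The 5′ end of RPL11A stayed within 2 bp, whereas that of RPS2 had a range of 17 bp. Both peaks were wide, at a median of 316 bp for RPL11A and 300.0 bp for RPS2. Reads passing the peak caller's threshold thus began over a further 116 and 100 bp. RPP2B, a P2 stalk protein, had 85, 96, 87 and 90 bp in SC-Leu and 92, 89, 92 and 92 bp in YPD. RPL1B, which builds the mobile L1 stalk, had 77, 85, 85 and 85 bp in SC-Leu and 77, 85, 93 and 85 bp in YPD. The groups overlapped in both.

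RPL32 had the shortest leader, 7 bp in all 8 libraries, in peaks of 200 or 201 bp. RPS26B came next, with 11 bp in 7 libraries, and in synHPRT1 integrated replicate 2 its peak was 382 bp wide and began 154 bp upstream. As the windows above show, the bases just before the start codon of both genes end in AG. The R64 annotation used here lists coding segments only, so that introns within leaders were not examined. RPL1A, RPL24A and RPL24B shared a median of 21 bp. RPL1A had 21, 53, 21 and 21 bp in SC-Leu and 40, 22, 21 and 21 bp in YPD. RPL24A had 21 and 14 bp in SC-Leu and 21 bp in YPD, and RPL24B had 21, 21 and 23 bp in SC-Leu and 23, 23, 21 and 21 bp in YPD. Only RPL1A had libraries far from its usual 5′ end.

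The 5′ end was the same base in all 8 libraries for 4 members, RPL32, RPL4A, RPS20 and RPS26A (10.3% of 39, against 1.18% of all 1190 genes), and stayed within 2 bp for 9 (23.1%, against 7.06%). RPL4A, which lines the exit tunnel, and RPS26A both began 25 bp upstream of the start codon, and RPS20, a small subunit protein, 41 bp upstream. Other members were spread out, with a range of more than 20 bp in 16 of 39 (41.0%, against 59.2% of all genes). After RPS26B with its 1 distant 5′ end, among the members called in every library, RPL12A had the widest range, with 108, 55, 68 and 55 bp in SC-Leu and 59, 38, 72 and 72 bp in YPD. The 5′ edge of a peak lies where the stacked reads pass the peak caller's threshold over background. It can therefore move where the main start does not.

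Peak width, by contrast, was close to that of all genes. Given the extension the peak caller applied, a peak of 200 bp corresponds to reads that begin at 1 base. The excess is the stretch over which further reads begin in numbers that pass the caller's threshold. Starts below that threshold do not widen the peak. The median width over the 39 members was 227 bp, against 231 bp over all 1190 genes, and per library it was 230.2 ± 3.69 bp (SD, n = 8). RPS26A, the tallest peak of all, had a width of 202 bp in all 8 libraries. A width of 210 bp or less was found in 7 members (17.9%, against 16.3% of all genes), among them RPL32, RPS26A, RPS26B, RPL4A and RPS22A, all with leaders of 25 bp or less. RPL11A and RPS2 were the widest.

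The copies of a pair were compared within each library. Both copies have 1 coding segment in 16 pairs, and in 11 of these both were called in all 8 libraries. In 10 of the 11 the same copy was taller in every library, the A copy in 6 pairs (RPL4, RPL9, RPL11, RPP2, RPS26 and RPS28) and the B copy in 4 (RPL8, RPL12 and RPL41 among them). The exception was RPL1, whose A copy was taller in 7 of 8. The taller copy exceeded the other by a median of 1.21-fold in RPL1 to 245-fold in RPS26, with a middle value of 2.73-fold in RPP2. The first 75 bases from the most frequent 5′ end of each of the 45 members with a peak differed at 11 or more positions, without gaps, from every other place in the genome. The closest was RPS26B to RPS26A. A read that spans these bases can therefore be assigned to 1 copy.

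**Figure D3:**
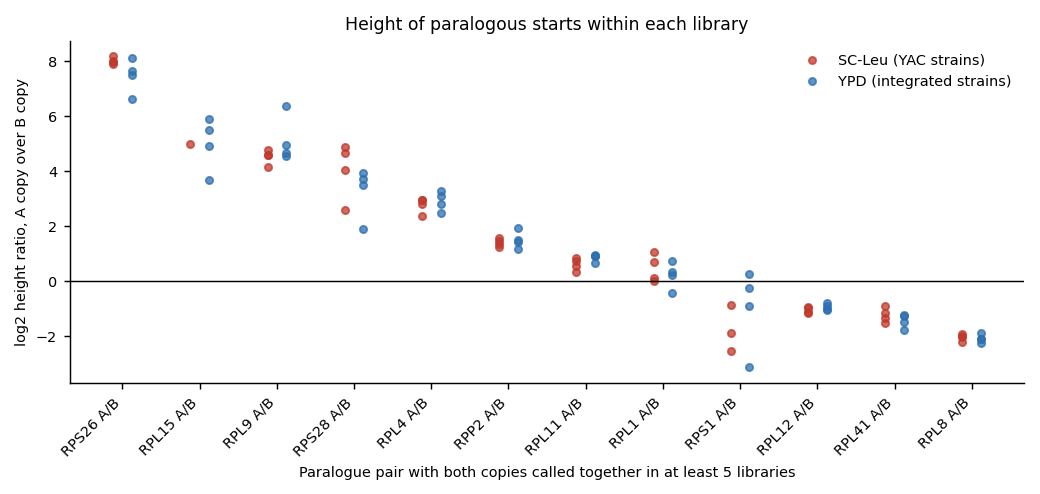
Log2 ratio of the height of the A copy over that of the B copy within each library, for 12 of the 13 pairs called together in at least 5 libraries, SC-Leu left and YPD right of each position. Ratios of RPS26, RPL15, RPL9, RPS28, RPL4 and RPP2 lie above 1 on this scale in every library that called both copies, those of RPL12, RPL41 and RPL8 lie below 0, and RPL1 and RPS1 cross 0.

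RPS26 was the most unequal pair, with a median ratio of A over B of 245 and a range of 98.6 to 290 over the 8 libraries. The A copy made up 99.5% of the summed height of the pair. Introns within leaders were not examined, and their part in the height of RPS26B was not tested. RPL9, a large subunit pair, had a median ratio of 24.8, from 17.9 to 83.6, with the A copy at 7702 ± 1497 RPM and the B copy at 288 ± 107 RPM (SD, n = 8). RPL9A had 6760, 5712, 7323 and 6439 RPM in SC-Leu and 8059, 10531, 8308 and 8482 RPM in YPD, with every SC-Leu value below every YPD value. Both copies of this pair had similar leaders, 47 and 42.5 bp.

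RPL15 had a median ratio of 31.6, from 12.9 to 59.7, over the 5 libraries in which RPL15B was called at all. RPL15A had 1314, 1023, 1020.5 and 821 RPM in SC-Leu and 802, 1158, 837 and 975 RPM in YPD. Its groups overlapped. RPS28 had a median ratio of 14.1, from 3.72 to 29.7, with RPS28A at 492 ± 148 RPM and RPS28B at 44.3 ± 27.6 RPM (SD, n = 8). RPS28A had 351, 429, 650.2 and 453 RPM in SC-Leu and 659.8, 682, 339 and 371 RPM in YPD, again with overlap. RPL4 had a median ratio of 7.36, from 5.13 to 9.65, and leaders of 25 bp in the A copy and 50.5 bp in the B copy. RPL4A had 3764, 3162, 3728 and 2571 RPM in SC-Leu and 3012, 3378, 2992 and 3189.6 RPM in YPD. RPL4B had 486, 452, 726 and 330.2 RPM in SC-Leu and 312, 485, 349 and 572 RPM in YPD. All 5 pairs favoured the A copy.

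Leaders differed between copies as well as heights. Over the 11 pairs the medians of the copies lay 2 to 90 bp apart, with a middle value of 20 bp. RPL11 differed most, with 141 bp in RPL11A and 51 bp in RPL11B, although the heights of its copies were only 1.72-fold apart. RPL1 had 21 bp in RPL1A and 85 bp in RPL1B, and RPP2 had 56.5 bp in RPP2A and 91 bp in RPP2B. By contrast RPL8 had 24.5 and 26.5 bp at a 4.17-fold difference in height. In RPS29, another small subunit pair, only the B copy was called, at 1262 ± 147 RPM (SD, n = 8) with a leader of 31.5 bp.

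The heights of the members were then compared between media. With limma on log2 height over the 1190 genes called in all 8 libraries, with locus as a covariate, none of the 39 members was lower in SC-Leu (background 0.0840% of genes) and none was higher (background 0.420%) at a Benjamini-Hochberg adjusted p under 0.05. At an unadjusted p under 0.05 there was 1 member, beside 176 of 1190 genes, and no other tool was run.

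Although no member passed, most lay on the same side. The fitted log2 difference (SC-Leu minus YPD) was negative for 33 of 39 members with a median of −0.23, against 59.7% of all 1190 genes and a median of −0.13. Part of this is common to all genes. When each library was centred on the median of the tested genes, 27 of 39 members were negative and their median was −0.11, against 51.3% and −0.01 for all genes. On the authors' fold enrichment, which is near its ceiling at many members, 21 of 39 were negative with a median of −0.0026, against 54.5% and −0.0145 for all genes, so that the members did not stand apart on this measure. The members' median was −0.39 among synHPRT1 strains alone, against −0.14 for all genes, and −0.10 among synHPRT1R strains alone, against −0.15. The difference between these loci was tested as an interaction in limma, which called no member (smallest adjusted p 0.652, with 2 members at an unadjusted p under 0.05).

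**Figure D4:**
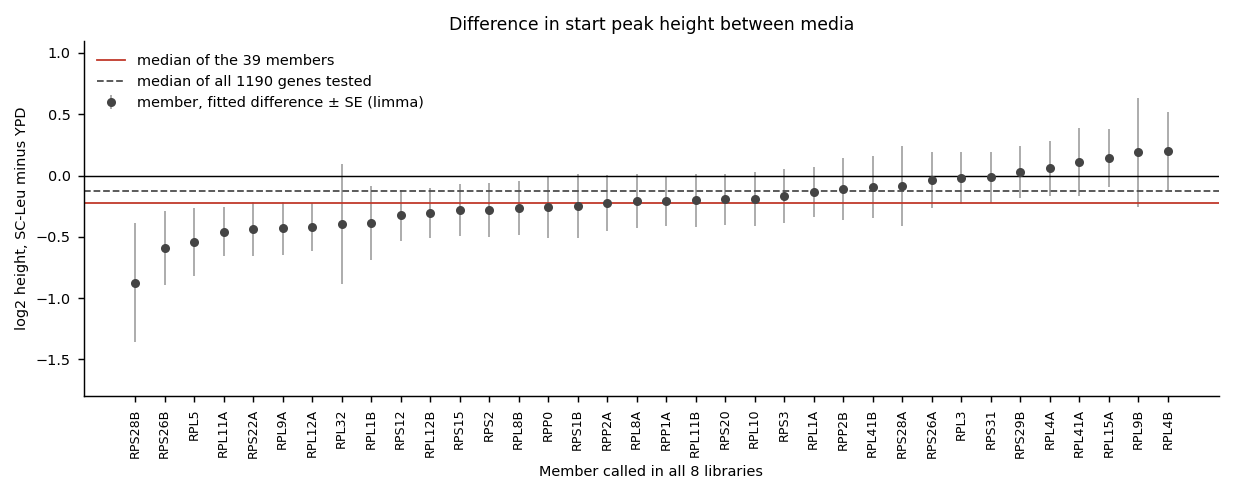
Fitted log2 difference in height, SC-Leu minus YPD, with its SE from limma, for 36 of the 39 members called in all 8 libraries. The red line is the median of all 39 (−0.23), the dashed line that of all 1190 genes (−0.13), and no member reached an adjusted p under 0.05.

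By role, the fitted difference was negative for 14 of 19 large subunit genes (median −0.20), 15 of 16 small subunit genes (median −0.28) and all 4 stalk genes (median −0.22). Every SC-Leu height lay below every YPD height in 7 members, which is 17.9% of 39 against 7.31% of all genes. They include RPL9A, RPL11A, RPL12A, RPL12B, RPP1A and RPS12. No member had all SC-Leu heights above all YPD heights (background 3.87%).

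Among these 7, RPL11A had 2809, 2793, 3510 and 3129 RPM in SC-Leu and 4239, 4241, 4128 and 4123 RPM in YPD, a log2 difference of −0.46 ± 0.20 (SE; limma adjusted p = 0.342). RPL12A, whose product lies at the stalk base, had 1466, 1554, 1465 and 1659 RPM in SC-Leu and 2083, 2100, 2022 and 2010 RPM in YPD, a difference of −0.42 ± 0.20 (SE; limma adjusted p = 0.361). RPL12B had 2822, 3390, 3252 and 3225 RPM in SC-Leu and 4320, 4164, 3718 and 3496 RPM in YPD. In both copies of RPL12 the YPD libraries stood above the SC-Leu libraries, and the median ratio of B over A was 2.06 in SC-Leu and 1.91 in YPD.

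RPS28B had a log2 difference of −0.87 ± 0.49 (SE, limma) and the most positive was 0.20 ± 0.32 (SE) in RPL4B. Neither passed. Over all genes, the 6 that passed were CHA1, lower in SC-Leu, and DDR2, BAT1, HSP12, ILV3 and ARG4, higher in SC-Leu.

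RPS1A had 152, 88.0 and 457 RPM in the 3 SC-Leu libraries that called it, leaving out synHPRT1 YAC replicate 2, and 411, 120, 547 and 796 RPM in YPD. RPL5, which binds 5S rRNA and was chosen after its values had been seen, had 2435, 2003, 1985 and 3088 RPM in SC-Leu and 3263, 2076, 4683 and 4267 RPM in YPD. Both genes were highest in the same 4 libraries, synHPRT1R YAC replicate 2, synHPRT1 integrated replicate 1 and both synHPRT1R integrated libraries, so that high values occurred in both media. These libraries had 6.48 to 7.86 M reads and the other 4 had 7.27 to 8.85 M reads.

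Positions of the 5′ ends were compared in the same way. With limma on leader length, none of the 39 members moved between media at an adjusted p under 0.05 (smallest 0.827), against a background of 0.420% of genes. At an unadjusted p under 0.05 there was 1 member, RPL8A, with a leader difference (SC-Leu minus YPD) of −6.25 bp (limma adjusted p = 0.827). The fitted difference was 2 bp or less for 19 of 39 members, against 359 of 1190 genes. It exceeded 10 bp in 7 members, against 334 of 1190 genes, and these include RPS26B with its 1 distant 5′ end.

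Known regulators of these genes were looked at next. Of the 10 genes RAP1, FHL1, IFH1, SFP1, HMO1, CRF1, ABF1, REB1, TOR1 and SCH9, 4 had no start peak in any library, 4 were called in 1 to 3 libraries, and HMO1 and TOR1 in all 8. These shares are near the background, since 1190 of 6002 genes had a start peak throughout and 3843 in at least 1 library. HMO1, a DNA-bending protein found at ribosomal protein promoters, averaged 203 RPM in SC-Leu and 371 RPM in YPD, a log2 difference of −0.87 ± 0.31 (SE; limma adjusted p = 0.255). TOR1 averaged 49.6 RPM in SC-Leu and 40.6 RPM in YPD, a difference of 0.17 ± 0.47 (SE; limma adjusted p = 0.904). No regulator passed in either direction.

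Motifs were searched on both strands in the 500 bp upstream of each start codon. The Abf1 form (TCA, any base, T, any 4 bases, ACG) was found upstream of 4 members, RPS26A, RPS28A, RPS28B and RPL1B (8.33%, against 9.55% of all 6002 genes). The Rap1 form (CACCC, any 2 bases, ACA) was found upstream of 2, RPL41B and RPL8A (4.17%, against 2.23%), and upstream of 27 of the 89 ribosomal protein genes with an intron. The share with the Abf1 form is near that of all genes. All matches of members to these 2 long forms are shown, with the match in capitals and read along the gene.
RPS26A, Abf1 form: acaccgcttCGTTCTCATTGAgtgttgagg
RPS28A, Abf1 form: agacgcggcCGTCTAGAGTGAccacgcact
RPS28B, Abf1 form: cacttatttCGTACAAAATGAtcacgcaac
RPL1B, Abf1 form: atacatcttTCAATATGCACGggtgcaacc
RPL41B, Rap1 form: acggttaccaCACCCGTACAcccttatctc
RPL8A, Rap1 form: atgaagaaaaCACCCAAACAtatctaggcc

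These lie at chrVII:149067-149096 on the minus strand (RPS26A), chrXV:649151-649180 on the minus strand (RPS28A), chrXII:672941-672970 on the plus strand (RPS28B), chrVII:254334-254363 on the plus strand (RPL1B), chrIV:222127-222156 on the minus strand (RPL41B) and chrVIII:36246-36275 on the minus strand (RPL8A), and none overlaps an annotated gene. The matches of RPS26A, RPS28A and RPS28B lie on the strand opposite to the gene. Counted from the median 5′ end of the start peak, the near end of the match lay 106 bp upstream in RPS28A and 144 bp upstream in RPS28B, and 463 bp upstream in RPS26A. GACGCA (Fhl1 form) was found upstream of 10 members (20.8%, against 10.9% of all genes) and TTACCCG (Reb1 form) upstream of 5 (10.4%, against 10.1%). TATAAA was found upstream of 27 (56.2%, against 60.5%) and a run of 8 T upstream of 25 (52.1%, against 44.2%). A match is a description of these letters, overlapping matches were allowed, and binding was not measured.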

How the data were processed

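CAGE-seq libraries from 8 yeast cultures were aligned by the authors (5′ reads only, Bowtie2 2.2.9, sacCer3 with the synthetic sequence added), and peaks were called with MACS2 2.1.0 per library and strand, without a control and with duplicates kept. The 16 lists called with the locus as a separate sequence were used, of 32. Each deposited list gives a score (10 times −log10 q), a fold enrichment over local background, and deposited −log10 p and −log10 q values. The pileup at each summit was recovered by solving the Poisson tail for the deposited fold and −log10 p, taking a 200 bp extension and a background over the genome (12000000 bp) or 10 kb. Of these, 22607 lay under 2000, and all were whole to a tolerance of 0.05. Most members called in every library stand above that pileup, so that this check did not cover their heights. Depth followed from the smallest background. Reads carried no molecular identifiers, so that heights count reads, amplified copies included, and not RNA molecules. The height of 1 library holds no measure of the variation between cultures. Replicates came from separate colonies.

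Peaks ended within R64 chromosomes. The tallest peak per gene was used, and heights were fitted with limma 3.58.1 (R 4.3.3), medium plus locus, and checked on simulated data. Medians are otherwise descriptions. Other tables were made in Python 3.11.15 (pandas 2.3.3, numpy 2.4.6, scipy 1.17.1). Members and lists were chosen with earlier results of these data known. Given sample by sample or by range were the 4 tallest, 4 lowest, 4 longest and 4 shortest leaders. So were all members called in 1 to 7 libraries and the 5 most unequal pairs. RPL5 and the heights of RPL11A, RPL12A and RPL12B were added after their values were seen. Some members are counted but not reported here by name. Alternatives tried were the peak threshold, window, reference, scaling, filter, covariates and each library left out.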

Additional observations from a re-analysis of the deposited data

Results flagged for a closer look

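In 4 of 78 groups of 4 libraries (39 members in each medium), 1 library stood far from the other 3 on the log2 height scale, where about 1 in 20 groups would be marked with no real difference. RPL11B was lowest in synHPRT1 YAC replicate 2, at 1562 RPM, against 2115 to 2198 RPM in the other SC-Leu libraries. RPS3 was lowest in the same library, at 1210 RPM, against 1630 to 1674 RPM. RPL11B was highest in synHPRT1R integrated replicate 2, at 2619 RPM, against 2150 to 2217 RPM in the other YPD libraries. RPL41B was highest in synHPRT1 integrated replicate 2, at 2522 RPM, against 1800 to 1877 RPM.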

How the results depend on the processing

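Of 74 values under alternatives other than leaving out a library, 59 stayed within the spread between libraries or within 1.5 times the count. The members lower or higher in SC-Leu, and those whose 5′ end moved, stayed at 0 under all alternatives run. The median leader fell to 31.1 bp when measured to the summit minus 100 bp, in place of 45.9 bp to the edge. The members' median log2 difference was −0.11 after centring, −0.0026 on the authors' fold, −0.39 in synHPRT1 strains alone and −0.10 in synHPRT1R strains alone, and the cause was not tested. All genes lower and higher in SC-Leu numbered 1 and 5 in the fit as reported, 0 and 0 on the fold and in either locus alone, and 2 and 8 with no filter. Leaving out 1 library gave 0 to 1 genes lower and 0 to 2 genes higher, a members' median difference of −0.29 (without synHPRT1R YAC replicate 1) to −0.19, 39 to 40 members called throughout, a leader of 44.7 to 46.6 bp, a height of 1858 to 1912 RPM, a width of 229.5 to 231 bp and 10 to 11 pairs with the same taller copy. With the replicate block, 0 genes were lower and 1 was higher, and no member passed. Deviations of same-numbered replicates correlated at −0.0577 to 0.0118, so that the numbers do not pair the samples. The 6 members called in only some libraries, RPL15B, RPL24A, RPL24B, RPS1A, RPS25A and RPS25B, lie on the reverse strand. That strand also holds many of the members called throughout. The share of partly called genes on each strand was not counted over all genes. Of the members never called, RPL29 and RPL38 lie on the reverse strand and RPS29A on the forward strand. The lowest height called was 13.7 to 14.6 RPM on the reverse strand, against 8.48 to 9.65 RPM on the forward strand. The part of strand in the calls was not tested.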
